A study of Mus musculus with 12 samples.

Results

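Lo-lo precursors were compared with pre-cDCs in 6 bulk RNA-sequencing libraries, 3 of each population, out of 12 libraries in the series. Both populations were sorted from the bone marrow of adult wild type C57BL/6 mice, an inbred strain, after depletion of cells bearing lineage markers such as CD3, Ly6G, NK1.1 and Ter119. Pre-cDCs were sorted as Siglec-H-negative cells, and lo-lo precursors as Siglec-H+ cells low for both the chemokine receptor CCR9 and B220, an isoform of CD45. The study counts both among its CD11c+ precursor fractions. It describes the Siglec-H+ CCR9-low pool as negative or low for MHC class II. The other 6 libraries were from lo-hi precursors (CCR9 low, B220 high) and pDCs (both high). No animal carried a transgene or received a treatment as far as the labels say. The figure legend of the study speaks of 3 individual mice, whereas its methods describe pools of sex- and age-matched mice for sorting, so that a replicate may be 1 mouse or a pool.

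Wells were grouped by a match of measured values, because the deposited labels contradict the study. The libraries were chosen by the order of 28 transcription factor (TF) genes within each well, set against the study's source data for the same 28 genes in 12 named samples. For each named sample 1 well ranked all 378 gene pairs alike, with 0 pairs in opposite order, and every other well had at least 7 pairs in opposite order. By this match wells A1, A5 and A9 were pre-cDC replicates 1 to 3 and wells A2, A6 and A10 were lo-lo replicates 1 to 3. The label named the same population in 4 of the 12 wells, and in 2 of the 6 wells compared here (A1 and A6). Every difference given here rests on this assignment. When the wells were grouped by their deposited labels instead, edgeR called 0 of 15265 genes between lo-lo and pre-cDC (160 at an unadjusted p under 0.05) and DESeq2 called 0 (98 at an unadjusted p under 0.05). On those labels 133 of the 476 genes reported below had a fold change of the opposite sign in edgeR.

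Genes outside the match gave 2 further measurements of the wells. Siglech, the gene of the surface protein used for the sort, read 276, 443 and 206 CPM (counts scaled to a common effective library size after TMM normalization) in the wells assigned to pre-cDC, 835, 999.6 and 729 in those assigned to lo-lo, 2039, 2367 and 1987 in lo-hi and 2537, 2844 and 2992 in pDC. These 4 ranges did not overlap. Xist, which is transcribed from the inactive X chromosome of females, read 218, 298 and 29.4 CPM in pre-cDC and 403, 477 and 26.6 in lo-lo, and the Y-linked gene Eif2s3y 1.17, 3.47 and 40.9 CPM in pre-cDC against 0.886, 1.37 and 40.2 in lo-lo. Replicate 3 was therefore low in Xist and high in Eif2s3y in both populations, and the same held in lo-hi (Xist 351, 424 and 58.4, Eif2s3y 1.33, 2.59 and 51.3) and pDC (Xist 334, 596 and 44.3, Eif2s3y 1.53, 3.16 and 58.6). On the deposited labels these 4 wells would be lo-hi replicate 3 and all 3 pDC replicates.

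Dendritic cells link innate sensing to T cell responses. Conventional dendritic cells (cDCs) take up antigen and present it to T cells on MHC molecules, and pre-cDCs are their committed precursors in bone marrow. Plasmacytoid dendritic cells (pDCs) sense nucleic acids through endosomal Toll-like receptors and release large amounts of type I interferon. The E protein E2-2, encoded by Tcf4, drives the pDC programme, and the inhibitor Id2 counteracts it in favour of cDCs. The comparison of lo-lo precursors with pre-cDCs asks how a Siglec-H+ population with progeny in both lineages differs from precursors on the cDC path. The study describes lo-lo cells of this gate as mixed. Some lacked Ly6d expression and clustered with pre-cDCs in its single-cell data, and a subset expressed the cDC marker Zbtb46 by flow cytometry. Among the Ly6D-high, Zbtb46-negative lo-lo cells it proposes separate pDC-primed and cDC-primed cells rather than dual potential.

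The genes that rose in lo-lo precursors included pDC genes (Ly6d, Cox6a2, Blnk), 3 of 19 B lymphoid genes (Il7r, Blk, Cd72) and lymphoid TF genes (Sox4, Ets1, Myb). The B lymphoid list as a whole had a median log2 fold change of 0.04, with 10 positive and 9 negative values. Of the 3 TF genes, Sox4 passed in all 6 fits that left out 1 library, Ets1 in 2 and Myb in 3. The genes that fell included monocyte-associated genes (S100a4, F13a1, Fn1), cDC lineage genes (Cd209a, Csf1r, Cst3), chemokine genes (Ccl9, Ccl6) and the myeloid TF genes Junb and Nr4a1. Of 15265 genes tested outside the 28 TFs, 476 (3.12%) passed an adjusted p of 0.01 in edgeR's quasi-likelihood test, which fits negative binomial models to counts. Of these, 242 (1.59%) were higher and 234 (1.53%) lower in lo-lo. The median log2 fold change of all genes tested was 0.04. Groups of 3 CPM values without overlap were seen for 3201 genes (21.0%). A replicate block in the model raised the count to 734 genes (378 higher and 356 lower), all 476 among them. The count fell to 275 without pre-cDC replicate 1, 295 without pre-cDC replicate 3, 297 without lo-lo replicate 1 and 317 without lo-lo replicate 2. In all, 217 genes (97 higher and 120 lower) passed in each of the 6 fits that left out 1 library. Fewer cells of a type and less RNA per cell cannot be told apart in such bulk libraries.

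**Figure D1:**
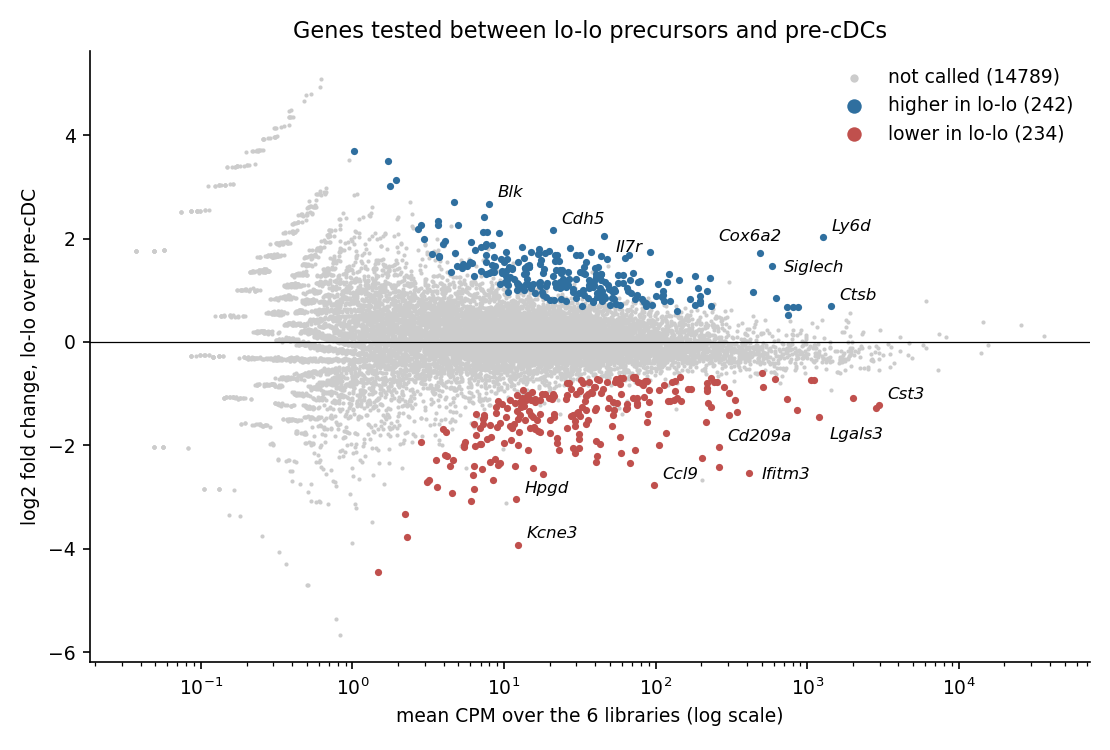
Log2 fold change of lo-lo over pre-cDC (vertical axis) against the mean CPM over the 6 libraries (log axis) for 15265 genes outside the 28 TFs, with 1 point per gene. Blue points are the 242 genes higher in lo-lo and red points the 234 genes lower at an adjusted p of 0.01, with Cdh5 (2.16) and Kcne3 (-3.92) as the largest increase and decrease among called genes with a mean of at least 10 CPM and groups without overlap.

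Promoter sequences are shown for 4 genes whose levels separated the populations, as the regulatory DNA of 2 genes that rose (Blnk and Il7r) and 2 that fell (Kcne3 and Cst3). Each window runs 5′ to 3′ on the gene's strand from 250 bases before to 50 bases after an annotated start (RefSeq, GRCm38.p6), and capitals mark any match to the motifs CAGCTG and CACCTG (E-boxes, bound by E proteins) or GAGGAAGT (a PU.1 motif), searched on both strands.
Blnk (chr19:40994172-40994471, minus strand): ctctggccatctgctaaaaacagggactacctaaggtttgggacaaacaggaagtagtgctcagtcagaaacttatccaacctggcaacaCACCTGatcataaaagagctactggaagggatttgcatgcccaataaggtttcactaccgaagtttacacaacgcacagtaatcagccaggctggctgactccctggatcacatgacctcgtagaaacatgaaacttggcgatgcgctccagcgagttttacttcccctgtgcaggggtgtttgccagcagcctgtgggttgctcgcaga
Il7r (chr15:9529827-9530126, minus strand): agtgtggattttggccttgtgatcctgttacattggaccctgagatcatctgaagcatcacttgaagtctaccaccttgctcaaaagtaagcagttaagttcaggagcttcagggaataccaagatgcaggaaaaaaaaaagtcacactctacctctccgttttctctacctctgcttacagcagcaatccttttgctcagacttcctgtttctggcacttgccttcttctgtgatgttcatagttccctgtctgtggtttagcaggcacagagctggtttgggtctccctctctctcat
Kcne3, the second of 2 windows (chr7:100178433-100178732, plus strand): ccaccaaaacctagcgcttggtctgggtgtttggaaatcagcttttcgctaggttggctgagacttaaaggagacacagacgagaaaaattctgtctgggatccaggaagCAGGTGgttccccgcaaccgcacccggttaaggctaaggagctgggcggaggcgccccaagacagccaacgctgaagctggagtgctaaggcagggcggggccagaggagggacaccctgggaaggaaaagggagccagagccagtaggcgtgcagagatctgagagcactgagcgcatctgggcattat
Cst3 (chr2:148875463-148875762, minus strand): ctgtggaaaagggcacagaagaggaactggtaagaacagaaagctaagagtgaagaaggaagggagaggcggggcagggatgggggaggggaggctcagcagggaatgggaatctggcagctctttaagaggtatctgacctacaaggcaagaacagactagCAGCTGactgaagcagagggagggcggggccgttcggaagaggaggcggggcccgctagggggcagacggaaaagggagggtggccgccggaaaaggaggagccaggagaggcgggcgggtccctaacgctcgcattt

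Blnk held the CACCTG motif 160 bases before its start, Kcne3 held it on the opposite strand 140 bases before, Cst3 held CAGCTG 88 bases before, and the Il7r window held none of these letters. The first of the 2 Kcne3 windows (chr7:100176420-100176719, plus strand), which is not printed, held none of them either. RefSeq windows were matched by symbol for 10033 of the 15265 genes (12789 windows), for 174 of the 242 higher genes (254 windows) and for 171 of the 234 lower genes (241 windows). CACCTG was in 24.8% of the windows of higher genes, 16.2% of those of lower genes and 18.1% of all. CAGCTG was in 16.1%, 15.8% and 15.3%, respectively. GAGGAAGT was in 5.91%, 4.56% and 3.37%. These shares are descriptions of the windows and were not tested.

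Among the pDC signature genes, 11 of 21 tested rose in lo-lo (against 1.59% of all genes tested) and none fell, with a median log2 fold change of 0.88. Ly6d (ENSMUSG00000034634, GRCm38 chromosome 15, 74762056 to 74763620, minus strand) encodes a surface protein that marks pDC-committed and B cell progenitors. It read 519, 539 and 447 CPM in the pre-cDC libraries and 2068, 1616 and 2445 in the lo-lo libraries. The lo-lo values were all above the pre-cDC values and overlapped those of lo-hi (2523, 1928 and 2739.6) and pDC (2262, 1673 and 2165). Its log2 fold change was 2.03 ± 0.17 (SE), with an adjusted p of 2.51e-08. Cox6a2, a mitochondrial respiratory chain subunit found in few tissues, rose from 216, 271 and 198 CPM to 740.3, 654 and 848 (1.71 ± 0.16 SE, adjusted p 1.07e-07). Pacsin1, which acts in membrane trafficking, rose from 17.9, 21.8 and 12.5 to 59.7, 52.2 and 60.1 CPM (1.74 ± 0.20 SE, adjusted p 2.13e-06). For both genes the lo-lo level lay between pre-cDC and lo-hi, where Cox6a2 read 1481, 1311 and 1377 and Pacsin1 176, 143 and 138 CPM. Bst2, an interferon-inducible antiviral membrane protein, read 497, 484 and 361 CPM in pre-cDC and 886, 871 and 652 in lo-lo (0.84 ± 0.17 SE, adjusted p 0.00174). The inhibitory receptor gene Lair1 (log2 fold change 0.99), Cd300c (0.80) and the lectin gene Clec10a (0.95) also rose.

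The sensing genes of pDCs did not move as 1 group. Tlr7, the endosomal receptor for single-stranded RNA, rose from 9.95, 11.4 and 7.77 CPM to 22.4, 21.2 and 17 in lo-lo and read 91.5, 91 and 98.1 in pDC (adjusted p 0.00223). Tlr9, the receptor for unmethylated CpG DNA, was near the floor of detection at 0.878, 1.98 and 1.35 CPM in pre-cDC against 2.36, 4.10 and 2.46 in lo-lo (adjusted p 0.262). Unc93b1, the chaperone of both receptors, read 415, 367 and 426 CPM in pre-cDC against 474, 452 and 546 in lo-lo (log2 fold change 0.28 ± 0.15 SE, adjusted p 0.329). Cd4, which mature pDCs express, read 11.7, 21.3 and 8.45 CPM in pre-cDC and 10.3, 22.5 and 10.7 in lo-lo, against 268, 230.0 and 235 in pDC, and its groups overlapped (adjusted p 0.931). Klra17, the gene of Ly49Q, read 15.5, 24.8 and 15.2 CPM in pre-cDC against 32.5, 36.5 and 29.7 in lo-lo without overlap (adjusted p 0.0209, and 0.00223 with the replicate block). Cd8a read 8.49, 7.44 and 3.72 CPM in pre-cDC against 13.3, 8.53 and 13.8 in lo-lo (adjusted p 0.0871). Kdr, a VEGF receptor gene, read 1.46, 4.96 and 3.04 CPM in pre-cDC against 3.25, 4.10 and 3.35 in lo-lo (adjusted p 0.795). The count of 11 fell to 7 without pre-cDC replicate 1, and Bst2 and Tlr7 reached adjusted p values of 0.0176 and 0.0272 in fits that left out 1 library. Siglech and Ccr9 are in this list through the sort gate and are no findings of the comparison. Without them 9 of 19 members rose and none fell, with a median of 0.86.

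**Figure D2:**
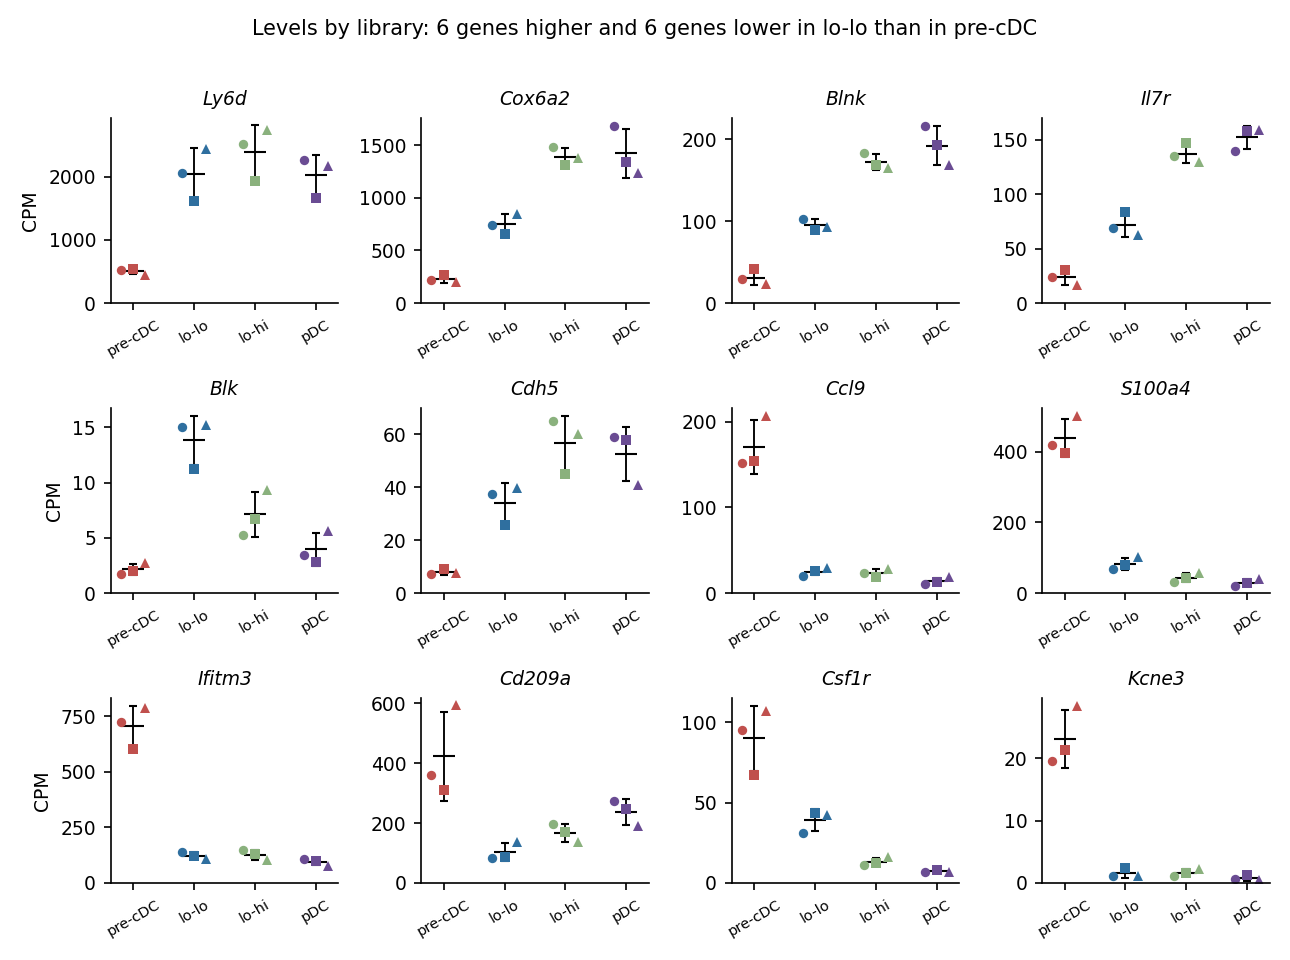
Levels in CPM (vertical axes, from 0) of 12 genes in the 4 populations, with circles, squares and triangles for replicates 1, 2 and 3 and black bars for the mean and SD of 3 libraries. The first 6 genes were higher and the last 6 lower in lo-lo than in pre-cDC, and Blk was higher in lo-lo than in all other libraries.

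The B lymphoid genes that rose were Il7r, Blk and Cd72. Of 19 tested, these 3 rose (against 1.59% of all genes) and none fell, with a median log2 fold change of 0.04. Il7r, the receptor of the lymphoid growth factor IL-7, rose from 24.3, 30.7 and 16.2 CPM to 68.8, 84 and 63 in lo-lo (1.61 ± 0.19 SE, adjusted p 5.15e-06). Blk, a Src family kinase of B cells, read 1.76, 1.98 and 2.70 CPM in pre-cDC and 15.1, 11.3 and 15.2 in lo-lo (2.68 ± 0.33 SE, adjusted p 8.13e-06). The lo-lo values of Blk were above those of lo-hi (5.30, 6.73 and 9.37) and pDC (3.41, 2.84 and 5.64) as well. Cd72, a B cell coreceptor, rose from 9.66, 13.4 and 3.72 to 24.5, 25.9 and 33.9 CPM (1.72 ± 0.30 SE, adjusted p 0.00118). Blnk, the adaptor that links B cell receptor signals to their effectors, was listed among the pDC genes and rose from 29.3, 41.2 and 23 to 103, 89.8 and 92.5 CPM (1.63 ± 0.18 SE, adjusted p 2.05e-06). Fcrla, an intracellular Fc receptor-like protein gene, read 37.2, 54 and 48 CPM in pre-cDC against 84.2, 77.5 and 70.3 in lo-lo without overlap (adjusted p 0.0136, and 0.00287 with the replicate block). The receptor signalling chain gene Cd79a read 0.878, 1.49 and 0.338 CPM in pre-cDC against 0.886, 0 and 0.67 in lo-lo. The heavy chain gene Ighm read 338, 381 and 466 CPM in pre-cDC against 549, 467 and 552 in lo-lo (adjusted p 0.175), and the recombination enzyme gene Dntt 32.8, 32.7 and 48 CPM in pre-cDC against 20.7, 29.3 and 36.6 in lo-lo (adjusted p 0.338).

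Of 21 lymphoid and pDC TF genes tested outside the 28, 6 rose and none fell, against 1.59% and 1.53% of all genes. Their median log2 fold change was 0.42, with 15 positive and 6 negative values. Sox4, needed for early B cell development, rose from 23.7, 32.7 and 19.3 CPM to 52.6, 75.4 and 59 (1.32 ± 0.22 SE, adjusted p 0.000288). Its lo-lo values were above all lo-hi (30.3, 39.3 and 50.2) and pDC values (14.6, 18.6 and 23.9). Tcf12, which encodes the E protein HEB, rose from 34, 38.2 and 20.9 to 62.3, 77.5 and 58.5 CPM (1.10 ± 0.22 SE, adjusted p 0.00164). Ets1 rose from 7.32, 12.4 and 4.05 to 19.2, 22.5 and 15.2 CPM and Myb, a regulator of blood progenitors, from 27.2, 29.8 and 17.9 to 42.8, 68.9 and 44.4 CPM (adjusted p 0.00276 and 0.00214). Mef2c, a TF of lymphoid development, rose by 0.69 ± 0.16 (SE) on the log2 scale, and Stat2, a signal carrier of type I interferon receptors, by 0.83 ± 0.20 (SE). The third E protein gene, Tcf3, read 37.5, 35.7 and 30.4 CPM in pre-cDC against 49.9, 42.7 and 47.8 in lo-lo (adjusted p 0.151), and the B cell TF genes Ebf1 (13.2, 24.8 and 9.80, then 16.5, 19.5 and 8.93 CPM) and Pax5 (5.86, 9.42 and 1.69, then 6.20, 5.12 and 1.79 CPM) had overlapping groups. The count of 6 fell to 1 without pre-cDC replicate 3 and to 1 without lo-lo replicate 2, to 2 without pre-cDC replicate 1 and to 3 without lo-lo replicate 1, and Sox4 was the member that passed in all 6 such fits.

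Of 29 myeloid TF genes tested outside the 28, 3 fell (1.53% of all genes did) and none rose. Their median log2 fold change was -0.28, with 10 positive and 19 negative values. Junb, an AP-1 subunit gene, fell from 250.3, 365 and 348 CPM to 101, 122 and 108 (-1.54 ± 0.17 SE, adjusted p 1.06e-06). Nr4a1, an immediate early gene needed by patrolling monocytes, fell from 10.8, 14.4 and 8.45 to 2.07, 3.07 and 3.13 CPM (-1.98 ± 0.32 SE, adjusted p 0.000173). Bhlhe40 fell from 26.1, 15.4 and 29.4 to 11.8, 9.90 and 11.4 CPM (adjusted p 0.00249, highest 0.031 with 1 library left out). The immediate early genes Fos and Jun had overlapping groups. Fos read 211, 295 and 404 CPM in pre-cDC against 149.7, 178 and 279 in lo-lo (adjusted p 0.496, and 0.0039 with the replicate block). Jun read 141, 229 and 296 CPM in pre-cDC against 132, 187 and 227 in lo-lo. Atf3 read 3.81, 6.45 and 7.77 CPM in pre-cDC against 0.295, 2.05 and 2.01 in lo-lo without overlap (adjusted p 0.0269, and 0.00653 with the replicate block). Cebpa, a master regulator of myeloid progenitors, read 19.3, 15.9 and 20.9 CPM in pre-cDC against 10.3, 16.4 and 9.16 in lo-lo (adjusted p 0.117), and Klf2 328, 452 and 457 CPM in pre-cDC against 322, 367 and 553 in lo-lo (adjusted p 0.995). The count of lower genes with the replicate block was 5, against 356 of all 15265 genes.

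The 28 TF genes themselves chose the wells, so their values are given as a description with no test. Tcf4 read 579, 727 and 352 CPM in pre-cDC and 1424, 1809 and 1329.7 in lo-lo. Spib, a pDC-associated Ets factor gene, read 90.5, 96.2 and 84.5 CPM in pre-cDC against 218, 212 and 242 in lo-lo, and Runx2, which acts in pDC migration, 239, 277 and 193 CPM in pre-cDC against 452, 525 and 454 in lo-lo. On the other side Id2 read 50.6, 49.6 and 59.1 CPM in pre-cDC and 18.6, 10.9 and 23.7 in lo-lo, and Batf3, required for cDC1s, 15.5, 17.4 and 21.6 CPM in pre-cDC against 1.77, 2.05 and 2.90 in lo-lo. Zbtb46, a TF gene of the cDC lineage, read 23.1, 16.9 and 19.6 CPM in pre-cDC against 11.2, 9.21 and 14.1 in lo-lo, against 1.87, 4.11 and 2.17 in pDC. Spi1, which encodes PU.1, read 133, 109 and 151 CPM in pre-cDC against 54.9, 56 and 65.2 in lo-lo, and Irf4 21.1, 32.7 and 12.5 CPM in pre-cDC against 9.15, 14.3 and 8.26 in lo-lo. Irf7, the inducer of type I interferon genes, read 102, 94.7 and 71.3 CPM in pre-cDC against 111, 92.8 and 63.9 in lo-lo with overlapping groups, against 549, 412 and 215 in pDC. Klf4 read 172, 203 and 182 CPM in pre-cDC against 125, 134 and 159.9 in lo-lo and Cbfa2t3 321, 295 and 228 CPM in pre-cDC against 241, 301 and 274 in lo-lo. No member lies just inside or outside a threshold, since the match was an order with 0 pairs opposite in each chosen well.

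Of the cDC lineage genes, 10 of 24 tested fell and 3 rose in lo-lo (1.53% and 1.59% of all genes), with a median log2 fold change of -0.25. Without the gate genes Itgax and Flt3, 10 of 22 fell and 2 rose (median -0.49). Cst3, which encodes the protease inhibitor cystatin C, fell from 4182, 3210.0 and 5025 CPM to 1569, 1705 and 2073 (-1.22 ± 0.16 SE, adjusted p 2.32e-05). Cd209a, a C-type lectin of the DC-SIGN family, fell from 362, 312 and 593 to 83.3, 88 and 137 CPM (-2.03 ± 0.25 SE, adjusted p 7.72e-05). Csf1r, the M-CSF receptor, fell from 95.4, 67.4 and 107 to 31.3, 43.7 and 42.2 CPM and read 6.81, 8.21 and 6.94 in pDC (-1.21 ± 0.18 SE, adjusted p 9.66e-05). Lgals3, the gene of galectin-3, fell from 1847, 1331 and 2049 to 606, 567 and 750.4 CPM (-1.44 ± 0.17 SE, adjusted p 3.36e-06). Naaa, a lysosomal lipid amidase, fell from 38.1, 29.3 and 39.2 to 8.86, 9.56 and 9.38 CPM (-1.94 ± 0.21 SE, adjusted p 1.04e-06). The costimulatory receptor gene Cd40 read 6.44, 5.45 and 11.1 CPM in pre-cDC and 0.886, 2.05 and 1.79 in lo-lo (3, 6 and 8 counts), with an adjusted p of 0.000592 (highest 0.0123 with 1 library left out). Cx3cr1, the fractalkine receptor, fell from 96.6, 81.3 and 90.2 to 48.7, 62.5 and 57.4 CPM (adjusted p 0.00753, highest 0.085 with 1 library left out). The lists of cDC and pDC genes overlap in biology, and 3 members ran against the rest. Itgax, which encodes CD11c and is a sort gate gene, read 62.7, 56 and 56.1 CPM in pre-cDC against 104, 95.2 and 112 in lo-lo, Cadm1 7.90, 7.44 and 4.39 CPM in pre-cDC against 14.8, 14.3 and 14.1 in lo-lo, and the receptor chain gene Csf2rb 71.4, 71.4 and 54.4 CPM in pre-cDC against 109, 106 and 105 in lo-lo. With 1 library left out, Cadm1 and Csf2rb passed only without pre-cDC replicate 2, and Itgax passed only without that library or without lo-lo replicate 2. Btla, an inhibitory receptor gene, had a log2 fold change of -0.80 (adjusted p 0.00909, highest 0.0706 with 1 library left out). The cDC1 gene Clec9a read 38.4, 38.7 and 39.9 CPM in pre-cDC against 37.2, 40.3 and 34.8 in lo-lo (adjusted p 0.906), and Xcr1 4.39, 4.46 and 3.04 CPM in pre-cDC against 1.48, 3.75 and 4.91 in lo-lo (adjusted p 0.902).

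MHC class II presentation genes had lower fitted levels in lo-lo than in pre-cDC. The study describes the Siglec-H+ CCR9-low pool, which includes lo-lo, as negative or low for MHC class II. How far this definition bears on the RNA levels was not tested. All 10 presentation genes tested had a negative log2 fold change (median -0.55), of which 2 passed the test (1.53% of all genes were lower). H2-DMb1, a chain of the peptide-loading protein DM, fell from 442, 335 and 435 CPM to 188, 203 and 219 (-0.99 ± 0.16 SE, adjusted p 0.000219). Ciita, the transactivator of class II genes, read 3.22, 5.95 and 4.39 CPM in pre-cDC and 0.886, 1.37 and 1.12 in lo-lo, that is 11, 12 and 13 counts against 3, 4 and 5 (-1.93 ± 0.44 SE, adjusted p 0.00624). Ciita lost its call in DESeq2 and in 5 of the 6 fits with 1 library left out (highest adjusted p 0.0382), the exception being pre-cDC replicate 1. H2-Aa, the class II alpha chain, read 641, 837 and 385 CPM in pre-cDC and 301, 561 and 414 in lo-lo (adjusted p 0.392). Cd74, the invariant chain that guards the class II groove, read 861, 1013 and 622 CPM in pre-cDC against 373, 577 and 499 in lo-lo without overlap (adjusted p 0.249). For H2-Aa replicates 1 and 2 were lower in lo-lo and replicate 3 was not. Both genes were above 1000 CPM in each lo-hi and pDC library. H2-DMb2 read 84.9, 53.1 and 96.6 CPM in pre-cDC against 49.6, 45.7 and 45.8 in lo-lo (adjusted p 0.0251, and 0.0041 with the replicate block). Reads of H2-DMb1 and H2-DMb2, closely similar copies, may have been divided between them in the counting.

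**Figure D3:**
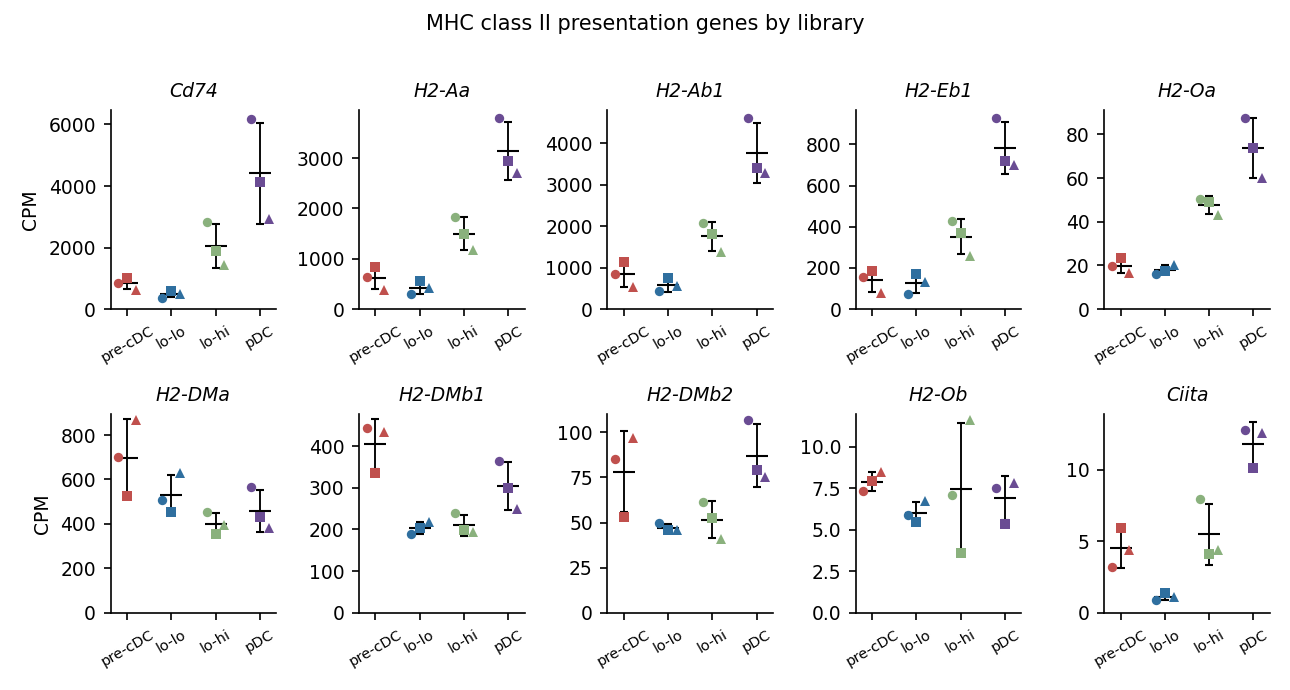
Levels in CPM (vertical axes, from 0) of 10 MHC class II presentation genes in the 4 populations, with circles, squares and triangles for replicates 1, 2 and 3 and black bars for the mean and SD of 3 libraries. Lo-lo lay below pre-cDC without overlap in 5 of the 10 genes, where 21.0% of all genes tested had groups without overlap in either direction. Genes such as Cd74, H2-Aa, H2-Ab1 and H2-Eb1 had their highest mean in pDC.

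Monocyte-associated genes fell: 6 of 10 were lower in lo-lo (1.53% of all genes) and none higher, with a median log2 fold change of -1.65. S100a4, a calcium-binding protein of motile cells, fell from 420.4, 398 and 501 CPM to 67.3, 78.2 and 101 (-2.42 ± 0.22 SE, adjusted p 4.68e-07). F13a1, a coagulation factor subunit made by monocytes, fell from 92.2, 87.3 and 108 to 20.1, 21.5 and 23.2 CPM (-2.15 ± 0.17 SE, adjusted p 1.24e-08), and Fn1, the gene of fibronectin, from 67.3, 63 and 74 to 12.1, 13.3 and 18.1 CPM (-2.21 ± 0.19 SE, adjusted p 3.74e-08). Ifitm3, a membrane protein that restricts virus entry, fell from 723, 604 and 788 to 138, 122 and 108 CPM (-2.53 ± 0.17 SE, adjusted p 1.98e-09), and its paralog Ifitm2 from 104, 86.3 and 148 to 27.2, 17.7 and 22.1 CPM. Ms4a6c fell by 0.88 on the log2 scale (adjusted p 0.000425). Lyz2, the lysozyme of myeloid cells, read 1929.7, 1873 and 1840.0 CPM in pre-cDC against 1466, 656 and 859 in lo-lo. Its adjusted p was 0.125, but 1.26e-05 with the replicate block, 0.00155 without lo-lo replicate 1 and 0.00717 in DESeq2, so that its call depends on the fit. Ly6c2, the classical monocyte antigen, had overlapping groups, at 2332, 2011 and 2260.2 CPM in pre-cDC against 1958, 1888 and 2023 in lo-lo (log2 fold change -0.17 ± 0.13 SE, adjusted p 0.565). The summed level of the 10 genes was 6022 to 6785 CPM in pre-cDC and 3230 to 4146 in lo-lo. Whether monocytes or early myeloid cells in the pre-cDC gate contributed was not tested.

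Of 23 surface Toll-like receptor and inflammatory genes tested, 4 fell (against 1.53% of all genes) and none rose (median -0.74), and 22 had a negative log2 fold change. Ccl9, an inflammatory CC chemokine, fell from 151, 154 and 206 CPM to 20.1, 26.3 and 28.8 (-2.76 ± 0.20 SE, adjusted p 4.23e-09), and the neighbouring chemokine gene Ccl6 from 267, 323 and 408 to 79.1, 65.2 and 65 CPM (-2.25 ± 0.18 SE, adjusted p 1.24e-08). Tlr2, the receptor of bacterial lipoproteins, fell from 21.4, 16.9 and 18.9 to 9.45, 8.87 and 8.04 CPM (adjusted p 0.00182, highest 0.0226 with 1 library left out), and Tnfaip2 from 41.6, 47.6 and 35.5 to 14.8, 17.7 and 14.3 CPM (adjusted p 3.7e-05). With the replicate block, 8 of the 23 passed, against 734 of all 15265 genes. Among 19 Fc receptor and ITAM signalling genes, 3 fell and 1 rose (1.53% and 1.59% of all genes), with a median of -0.21. Fgr, a Src family kinase gene, rose from 47.1, 49.6 and 26.7 to 90.1, 96.6 and 96.3 CPM (1.20 ± 0.19 SE, adjusted p 0.000132). Clec7a, the beta-glucan receptor dectin-1, fell from 34.8, 44.6 and 32.1 to 10.9, 9.90 and 5.58 CPM (-2.09 ± 0.25 SE, adjusted p 5.55e-06). Fcgr1, the high-affinity IgG receptor, had 21, 20 and 9 counts in pre-cDC and 1, 5 and 3 in lo-lo (adjusted p 0.00183, highest 0.017 with 1 library left out). Syk, the kinase that both B cell and lectin receptors use, read 59.7, 78.8 and 56.1 CPM in pre-cDC against 100.1, 103 and 95.4 in lo-lo (adjusted p 0.0163, and 0.00578 with the replicate block).

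Lysosomal genes did not move as 1 group, with 2 of 25 higher and 1 lower, against 1.59% and 1.53% of all genes, and a median of -0.14. Ctsl, a cathepsin, rose from 76.1, 116 and 69.6 CPM to 201, 208 and 185 and read 1475, 962 and 778 in pDC (1.19 ± 0.21 SE, adjusted p 0.00113, highest 0.0156 with 1 library left out). Ctsb rose from 1033, 1273 and 990.1 to 1787, 1739 and 1825 CPM (0.70 ± 0.14 SE, adjusted p 0.00222), but lost its call in 4 of the 6 fits with 1 library left out (highest adjusted p 0.0286, without pre-cDC replicate 1). Ctss, the cathepsin that degrades the invariant chain, read 712, 665 and 825 CPM in pre-cDC against 576, 551 and 657 in lo-lo (adjusted p 0.333). Cyba, a subunit of the phagocyte oxidase, read 605, 501 and 719.5 CPM in pre-cDC against 454, 339.6 and 397 in lo-lo (adjusted p 0.0266, and 0.00371 with the replicate block). With that block 3 of the 25 rose and 5 fell, against 378 and 356 of all 15265 genes. Neither Ctsb nor Ctsl passed without pre-cDC replicate 1 or without pre-cDC replicate 3, and 3 members fell without lo-lo replicate 1.

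Cytokine receptor genes moved in both directions, with 5 of 25 higher and 5 lower (1.59% and 1.53% of all genes) and a median of -0.02. Beside Il7r, the gene Csf2rb2, whose product is the beta chain of the mouse IL-3 receptor, rose from 19.6, 25.3 and 20.3 CPM to 59.4, 58 and 57.2 (1.43 ± 0.17 SE, adjusted p 3.06e-06). Csf2rb and Csf2rb2 are near-identical copies, so that reads may have been divided between them. Ifnar1, a chain of the type I interferon receptor, rose from 52.7, 60.0 and 44.6 to 102, 88.4 and 88.7 CPM (adjusted p 0.00137, highest 0.016 with 1 library left out), and Il21r from 12.9, 17.4 and 10.5 to 22.7, 26.6 and 24.1 CPM (adjusted p 0.00686, highest 0.0676). Csf2ra, the alpha chain of the GM-CSF receptor, fell from 127, 103 and 159 to 51.7, 43.7 and 53.4 CPM (-1.39 ± 0.18 SE, adjusted p 1.99e-05). Ifngr1, the interferon gamma receptor, fell from 108, 89.7 and 144 to 52, 49.5 and 61.6 CPM (adjusted p 0.000788), Il13ra1 from 21.1, 30.2 and 24.3 to 7.09, 9.21 and 11.8 CPM (adjusted p 0.000299) and Tnfrsf1a, a TNF receptor, from 67.6, 68.4 and 68.6 to 41.9, 42.3 and 40.4 CPM (adjusted p 0.00483, highest 0.0304). Flt3, the receptor of the main DC growth factor, read 128, 118 and 139.5 CPM in pre-cDC against 163, 169 and 184 in lo-lo without overlap (0.42 ± 0.15 SE, adjusted p 0.104). The 5 higher genes were 2 or 3 in the fits without pre-cDC replicate 1 or 3 or any 1 lo-lo library.

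Of the chemokine receptor and homing genes, 2 of 22 rose and 5 fell (1.59% and 1.53% of all genes), with a median of -0.06. Without the gate gene Ccr9, 1 of 21 rose. Ccr2, which carries cells out of the marrow towards CCL2, fell from 444, 495 and 393 CPM to 138, 192 and 169.5 (-1.42 ± 0.21 SE, adjusted p 0.000169), and Ccr1 from 10.5, 13.9 and 12.2 to 5.02, 3.75 and 3.13 CPM (-1.61 ± 0.30 SE, adjusted p 0.00104, highest 0.0123 with 1 library left out). The integrin genes Itgb2 (133, 125 and 155, then 75.9, 70.0 and 71.7 CPM, adjusted p 0.000911) and Itgb7 (287, 236 and 332, then 140.0, 149 and 171 CPM, adjusted p 0.000331) fell. Cxcr4, the marrow retention receptor, read 41.9, 32.2 and 27 CPM in pre-cDC against 35.7, 35.2 and 38.4 in lo-lo (adjusted p 0.815). The 5 lower genes were 3 without lo-lo replicate 3, and the 2 higher genes were 0 without pre-cDC replicate 1 or 3 and 1 without any 1 lo-lo library. Without pre-cDC replicates 1 and 2, which were rich in basophil genes, 1 pre-cDC library remained, so that its spread was assumed to be that of the other groups. In that fit 2 of the 22 fell, and Ccr2 had a log2 fold change of -1.28 with an adjusted p of 0.0246.

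No member of the S phase list or of the G2 and mitosis list passed the test at this depth. The cyclin gene Ccnd1, which is in neither list, passed in each of the 6 fits with 1 library left out (highest adjusted p 0.00054). Of 43 S phase genes and 51 G2 and mitosis genes, edgeR called 0 (3.12% of all genes), with medians of 0.17 and 0.002. Of these, 4 and 8 had an unadjusted p under 0.05, and DESeq2 called 0. Of the G2 and mitosis genes, 2 were lower without pre-cDC replicate 2 and 1 was higher with the replicate block. Mki67, a marker of cycling cells, read 225, 281 and 192 CPM in pre-cDC and 262, 345 and 235 in lo-lo, against 31.5, 43.6 and 65.5 in pDC. Pcna, the replication clamp, read 148, 130.4 and 169.9 CPM in pre-cDC against 138, 127 and 158 in lo-lo, and Top2a 401, 448 and 337 CPM in pre-cDC against 482, 558 and 471 in lo-lo (log2 fold change 0.35 ± 0.17 SE). The listed interferon-stimulated genes were likewise not called (0 of 27 in edgeR, 1 higher and 1 lower with the replicate block, 6 at an unadjusted p under 0.05, 0 in DESeq2, median -0.16). Interferon-inducible genes outside this list are not in that count, among them Bst2 (called higher) and Ifitm3 (called lower). Ifit2 read 2.63, 4.46 and 1.69 CPM in pre-cDC against 2.66, 4.78 and 4.47 in lo-lo, Mx1 13.2, 16.9 and 15.2 CPM in pre-cDC against 18.6, 19.1 and 10.5 in lo-lo, and Ifi213 1.46, 1.98 and 1.69 CPM in pre-cDC against 4.13, 3.41 and 1.12 in lo-lo. Trim30a read 139, 130.4 and 95.9 CPM in pre-cDC against 185, 222 and 168 in lo-lo without overlap (adjusted p 0.0168, and 0.00393 with the block), and Zbp1, a sensor of Z-form nucleic acids, 13.5, 9.42 and 8.11 CPM in pre-cDC against 6.20, 4.10 and 2.68 in lo-lo (adjusted p 0.0581, and 0.00231 with the block). Jak1, a kinase of cytokine receptors, read 59.1, 67.9 and 42.9 CPM in pre-cDC against 55.5, 80.2 and 61.2 in lo-lo (adjusted p 0.601). Of 28 ER secretory genes, 1 rose, against 1.59% of all genes (median 0.10): the chaperone gene Hsp90b1, from 615, 578 and 508 to 870.0, 1019 and 825 CPM (adjusted p 0.00241, highest 0.0277 with 1 library left out).

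Progenitor genes showed no common direction. Of 20 tested, 2 rose and 1 fell (1.59% and 1.53% of all genes), with a median of -0.05. The 2 that rose, Sox4 and Myb, were also in the TF list, and Myb missed the threshold without lo-lo replicate 2 and without pre-cDC replicate 1 or 3 (highest adjusted p 0.026). Cd48, a SLAM family receptor, fell from 362, 249.9 and 482 CPM to 189, 179 and 235 (adjusted p 0.00877, highest 0.0718 with 1 library left out). Hoxa9, a TF gene of early progenitors, read 7.90, 4.46 and 3.38 CPM in pre-cDC against 11.5, 10.9 and 11.2 in lo-lo (adjusted p 0.0247, and 0.00747 with the block), and Cd34 21.1, 17.4 and 36.5 CPM in pre-cDC against 12.1, 13.3 and 16.5 in lo-lo (adjusted p 0.0387, and 0.00728 with the block). Kit, the stem cell factor receptor, read 9.08, 8.43 and 5.74 CPM in pre-cDC against 7.97, 6.14 and 6.70 in lo-lo (adjusted p 0.845).

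**Figure D4:**
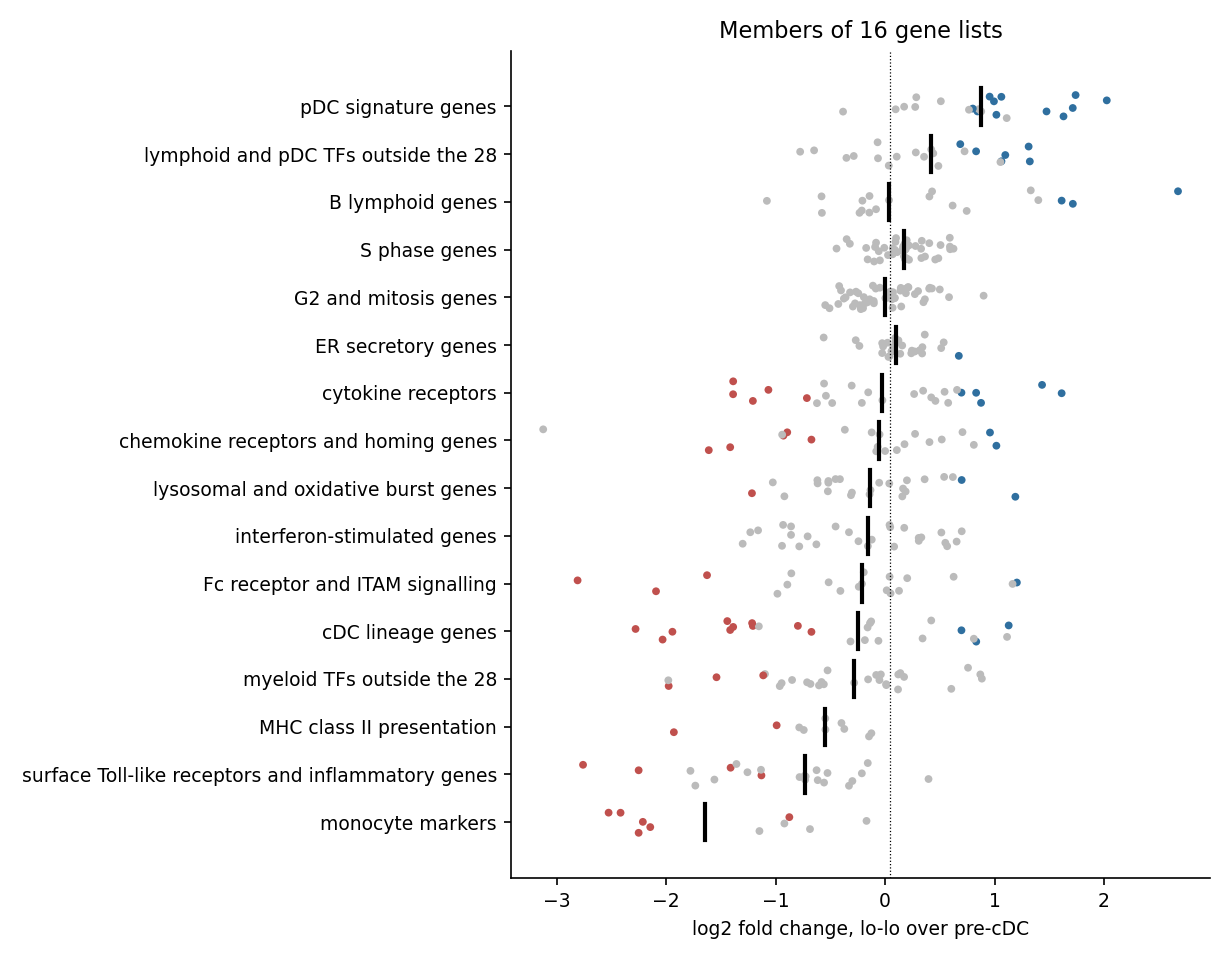
Log2 fold change of lo-lo over pre-cDC (horizontal axis) for the members of 16 gene lists, with blue points for genes higher in lo-lo, red for genes lower at an adjusted p of 0.01 and grey for the rest. Black bars are list medians, from 0.88 for the pDC signature genes to -1.65 for the monocyte markers, and the dotted line is the median of all genes tested (0.04).

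Several of the largest changes were in genes outside these lists. Kcne3 (ENSMUSG00000035165, GRCm38 chromosome 7, 100176502 to 100184869, plus strand), a potassium channel subunit, fell from 19.6, 21.3 and 28.4 CPM to 1.18, 2.39 and 1.12 (-3.92 ± 0.33 SE, adjusted p 2.48e-08), the largest decrease among called genes with a mean of at least 10 CPM and groups without overlap. Hpgd, which inactivates prostaglandins, fell from 14.3, 24.8 and 25 to 3.25, 3.07 and 1.56 CPM (-3.04 ± 0.31 SE, adjusted p 5.91e-07). Dpep2, a leukotriene-converting dipeptidase, fell from 24.9, 18.8 and 35.5 to 3.84, 3.41 and 6.92 CPM (-2.44 ± 0.30 SE). Tppp3, Nupr1 and Wfdc17 had log2 fold changes of -2.56, -2.40 and -2.32. Cdh5, the gene of VE-cadherin, rose from 7.03, 8.93 and 7.43 to 37.5, 25.6 and 39.5 CPM (2.16 ± 0.24 SE, adjusted p 1.43e-06), the largest increase by the same rule. Nox1, a superoxide-producing oxidase, rose from 11.7, 15.4 and 9.46 to 44.9, 42 and 39.1 CPM (1.81 ± 0.19 SE, adjusted p 7.72e-07), and P2ry13, an ADP receptor, from 7.32, 11.9 and 4.39 to 23, 26.3 and 29.5 CPM (1.80 ± 0.24 SE, adjusted p 2.15e-05). Atp1b1, a sodium pump subunit, rose from 40.1, 54.5 and 33.4 to 151, 137 and 134 CPM (1.73 ± 0.17 SE, adjusted p 2.34e-07). Pmepa1, Hs3st1, Jakmip1, Prr5 and Sept1 rose by 1.72 to 1.83 on the log2 scale. Mctp2 had a log2 fold change of 2.05 ± 0.36 (SE), with an adjusted p of 0.00414 that rose to 0.0218 without pre-cDC replicate 3.

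Among the most abundant genes that changed, Crip1 fell from 3702, 2959.6 and 5374 CPM to 1525, 1406 and 2048 (-1.27 ± 0.19 SE, adjusted p 0.00016) and Tmsb10, an actin-binding thymosin, from 2599, 2042 and 3549 to 1217, 1125 and 1534 CPM (-1.08 ± 0.17 SE, adjusted p 0.000169). Vim, the gene of vimentin, fell from 1443, 1143 and 1566 to 763, 790.4 and 944 CPM (adjusted p 0.00833, highest 0.0736 with 1 library left out). Mpeg1, the pore-forming protein perforin-2, rose from 642, 624 and 590.1 to 1041, 905 and 1019 CPM (adjusted p 0.00182, highest 0.0204). Pgls, an enzyme of the pentose phosphate pathway, rose from 684, 691 and 633 to 1075, 1023 and 1116 CPM (adjusted p 0.00121, highest 0.0106). Cd47, the "do not eat me" signal, read 625, 618 and 585 CPM in pre-cDC against 891, 844 and 895 in lo-lo (adjusted p 0.00942), and it passed in none of the 6 fits with 1 library left out (highest 0.0569).

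The lo-lo mean CPM lay between the means of pre-cDC and pDC for 199 of the 242 higher genes (82.2%) and 193 of the 234 lower genes (82.5%), against 52.4% of all genes tested. These shares, and the counts of lo-lo values above or below the other 9 libraries that follow, are descriptions, since the same lo-lo and pre-cDC libraries chose the genes. Each lo-lo value is also an average over a sorted population that the study describes as mixed. In 16 of the 242 higher genes all 3 lo-lo values were above the other 9 libraries of the series (235 of all 15265 genes, 1.54%). They included Blk, Sox4, the survival gene Bcl2 (55.3, 45.1 and 43.2 CPM in pre-cDC, 96.9, 124 and 106 in lo-lo, 27.4, 33.6 and 44.1 in lo-hi and 7.15, 11.7 and 10.8 in pDC) and Il12a, the p35 subunit of IL-12 (5.56, 5.95 and 7.77 CPM in pre-cDC, 12.7, 13.3 and 17.9 in lo-lo, 6.18, 7.76 and 11.6 in lo-hi and 3.24, 3.47 and 3.90 in pDC). In 9 of the 234 lower genes all 3 lo-lo values were below the other 9 libraries (143 of all genes, 0.937%). Beside Ciita these included Cd52, a small surface glycoprotein (1190.4, 1055 and 1421 CPM in pre-cDC, 509.7, 463 and 495 in lo-lo, 737, 640.5 and 558 in lo-hi and 885, 734 and 737 in pDC), and the glycolytic enzyme gene Aldoa (289.8, 235 and 332 CPM in pre-cDC, 169, 131 and 146 in lo-lo, 235, 203 and 202 in lo-hi and 270.4, 199.9 and 182 in pDC). Bcl2, Il12a, Cd52 and Aldoa were chosen for these sentences after their values were seen.

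Markers of other bone marrow cells were summed in each library. The 5 basophil and mast cell markers tested summed to 840.5, 723 and 112 CPM in pre-cDC and to 134, 109.5 and 45.6 CPM in lo-lo. Prss34, a basophil protease, read 537, 443 and 64.2 CPM in pre-cDC and 66.7, 71.3 and 26.6 in lo-lo (adjusted p 0.108), and Mcpt8 247, 230.1 and 34.5 CPM in pre-cDC against 33.1, 31.4 and 11.2 in lo-lo (adjusted p 0.0909, and 0.00011 with the block). EdgeR called 0 of the 5 (4 at an unadjusted p under 0.05), DESeq2 called 4 and the replicate block 3. Of all 15265 genes these fits called 476, 469 and 734. Basophil genes were highest in pre-cDC replicates 1 and 2. Leaving out both, a choice made after seeing the data, kept replicate 3 as the only pre-cDC library, so that the fit has no pre-cDC spread of its own and assumes that of the other groups. On that assumption 483 genes passed, 192 higher and 291 lower, of which 317 were among the 476. Genes named above that missed the threshold in it were Mpeg1, Cd47, Nr4a1, Ciita, Fcgr1, Tlr2, Ccr2, Ccr1, Cx3cr1, Tlr7, Cd300c, Mef2c, Btla, Il21r, Tnfrsf1a, Itgax and Sdc1. The 11 neutrophil markers summed to 4413 to 11558 CPM in pre-cDC and 5467 to 18049 in lo-lo, with the highest value in lo-lo replicate 1. S100a8, a neutrophil alarmin gene, read 5050.0, 4877 and 1921 CPM in pre-cDC against 7724, 2393 and 2499 in lo-lo. The 10 erythroid markers summed to 4719 to 18472 CPM in pre-cDC and 5870 to 8250 in lo-lo. The macrophage gene C1qa read 3.51, 4.96 and 1.01 CPM in pre-cDC against 3.84, 9.56 and 0.67 in lo-lo, the platelet gene Pf4 44.8, 49.1 and 12.2 CPM in pre-cDC against 58.8, 16.7 and 7.59 in lo-lo, and the T cell gene Cd3d 3.81, 0.992 and 0.676 CPM in pre-cDC against 1.48, 1.37 and 0 in lo-lo. EdgeR called 0 of the neutrophil, macrophage, erythroid, platelet and T or NK cell markers (0, 1, 0, 0 and 0 at an unadjusted p under 0.05), against 3.12% of all genes, and DESeq2 called 0. Of 5 plasma cell markers 1 rose (1.59% of all genes did). This was Sdc1, from 8.78, 6.45 and 7.77 to 15.4, 18.8 and 17 CPM (adjusted p 0.00771), and it passed in none of the 6 fits with 1 library left out. The part of other cell types in the differences between lo-lo and pre-cDC was not tested.

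**Figure D5:**
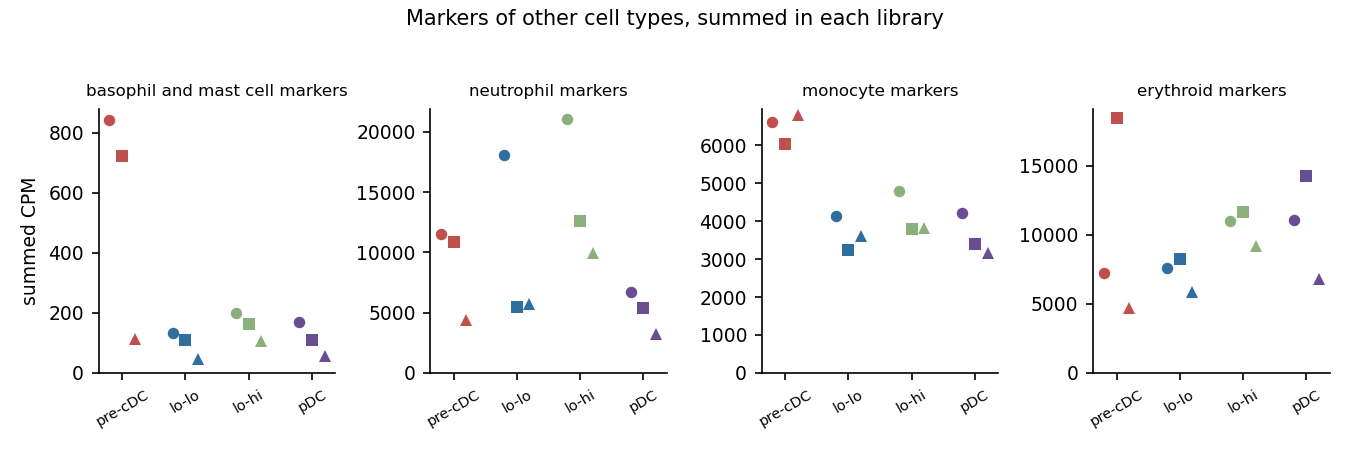
Summed CPM (vertical axes, from 0) of the markers of 4 other cell types in each of the 12 libraries, with circles, squares and triangles for replicates 1, 2 and 3. Basophil and mast cell markers were highest in pre-cDC replicates 1 and 2 (840.5 and 723 CPM), neutrophil markers in replicate 1 of lo-hi and lo-lo, and monocyte markers in pre-cDC (6022 to 6785 CPM, against at most 4782 elsewhere).

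Of the sort gate genes, 3 of 8 (Siglech, Ccr9 and Itgax) were higher in lo-lo by RNA, against 1.59% of all genes. The gates as described set a direction for Siglech, whereas CD11c was shared and lo-lo was sorted as low for CCR9. With 1 library left out, Ccr9 passed in 4 and Itgax in 2 of the 6 fits. Ccr9 read 32.8, 44.6 and 21.6 CPM in pre-cDC and 65.9, 69.3 and 62.8 in lo-lo, against 465, 397 and 520.2 in pDC. Ptprc, whose B220 isoform was used for the gate and which the counts do not resolve by isoform, read 108, 172 and 101 CPM in pre-cDC against 157, 185 and 136 in lo-lo with overlap. Ly6g and Klrb1c, both depleted before the sort, stayed below 5 CPM in all 6 libraries. Total counts were 2152493 to 4182923 in these 6 libraries, and mitochondrial genes held 3.0% to 12.3% of the counts, with the highest shares in replicate 2 of both populations. Of 5 sex-linked genes edgeR called 0 (0 at an unadjusted p under 0.05), against 3.12% of all genes, and DESeq2 called 0. Nothing in the sources says how far the replicates were separate beyond the mice named, so p-values measure the spread between these libraries.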

How the data were processed

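RNA of sorted populations was sequenced by SCRB-seq, a 3′ method with barcoded wells, and the deposited table holds whole-number counts per gene in 12 wells, which the authors made with zUMIs and the aligner STAR on mm10, as far as the submitters' processing notes and the methods say. Whether these counts are reads or unique molecular identifiers is not given in the sources used here. Of 21754 gene IDs, 21410 were matched to a symbol in the GENCODE vM21 annotation (GRCm38), from which gene positions were taken.

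Wells were grouped by the rank order of 28 TF genes in the study's source data and not by their deposited labels, and these 28 genes were fitted with the rest but are given with no test and left out of all counts of called genes. The filter on low counts asked for a mean of 1 or more across wells and kept 15293 genes, with 6461 left out. The counts were fitted with edgeR 4.0.16 (R 4.3.3, TMM scaling, robust quasi-likelihood fit of all 4 populations, no block), and p-values were adjusted by Benjamini and Hochberg with a threshold of 0.01. CPM, in the text and figures, are counts scaled to the libraries' effective sizes (total times TMM factor), while the floor of 3 counts, 0.500 to 1.67 on this scale, was computed on unadjusted totals (1801463 to 5995971 counts per library) and covers counting error only. DESeq2 1.42.0 and the other alternatives are described in the closing section. The SE of a log2 fold change was taken as its size divided by the square root of the F statistic.

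Same-numbered lo-lo and pre-cDC libraries deviated together from their group means (r 0.175 to 0.656, 3 pairs, across genes). All 3 pairs were above 0.1, so the numbers, which follow the order of the wells, were used as a replicate block in alternative fits. The main fit has no block, so its counts, SEs and adjusted p values do not use the pairing. The fit with the replicate block also holds lo-hi and pDC. Over all 4 populations the 18 same-numbered pairs had a mean r of 0.277 and a lowest of -0.431, and the 36 other pairs a mean of -0.14 and a highest of 0.573, so that the numbers do not pair every library.

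Named genes were, outside the 28, the 12 largest changes in each direction among called genes without overlap and with a mean of at least 10 CPM, the 5 called genes with the highest mean in each direction, up to 4 members with the smallest p of each list, the sort gate and sex-linked genes, and genes named in the study's text on these libraries. Other called or background members of a list were named after their values were seen. The members and lists were chosen with earlier results of these data known. Some members counted in the lists are not reported here by name.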

Additional observations from a re-analysis of the deposited data

How the results depend on the processing

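The grouping of the wells decided the result. Grouped by the deposited labels, 0 genes were called, 0 higher and 0 lower, in edgeR and, in a test chosen after seeing the data, in DESeq2 (0, 0 and 0). On those labels the log2 fold changes of 25 named genes called in the main fit took the opposite sign: Cdh5 -0.20, Ly6d -0.21, Pmepa1 -0.0143, Nox1 -0.0071, Kcne3 0.0356, Hpgd 0.43, Tppp3 0.0423, Pgls -0.0832, Mpeg1 -0.0211, Cd47 -0.0137, Junb 0.39, Nr4a1 0.24, H2-DMb1 0.0513, Ciita 0.76, Fcgr1 0.46, Blk -0.39, Ccr2 0.15, Itgb2 0.14, Itgax -0.40, Cd40 0.036, Csf2rb -0.0091, Cadm1 -0.0907, Btla 0.12, Cd209a 0.0688 and Il13ra1 0.34. Under the other alternatives run, no named gene called in the main fit or in the alternative changed sign. Sign changes of named genes called in neither fit were not counted.

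With the grouping kept, the counts of called, higher and lower genes were 734, 378 and 356 with the replicate block, and 1620, 744 and 876 with the block in a fit of the 6 libraries alone. The block in all 12 libraries lost no call of a named gene and added 16. Without a filter on low counts 724 genes were called, 359 higher and 365 lower. At an adjusted p of 0.05 the counts were 896, 479 and 417. A fit of the 6 libraries alone called 332, of which 140 were higher. With 1 library left out the counts ranged from 275 to 654 called, 126 to 318 higher and 149 to 336 lower, with the lowest total without pre-cDC replicate 1 and the highest without pre-cDC replicate 2. DESeq2's test (469), its size factors in edgeR (486), edgeR's own filter (458) and thinning to the smallest total (369) gave counts within 1.5 times of 476. Beyond what these settings change by construction (fewer libraries or genes, another threshold), the cause was not tested. Genes under a few CPM were limited by depth, since 3 counts of an unadjusted total of 2152493 are 1.39 on the CPM scale.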
